A study of Mus musculus with 16 samples.

Results

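This account covers 10 heat shock genes of the mouse, of the 49139 genes with a symbol in the count tables. They were taken by symbol: the small heat shock genes Hspb1, Hspb7, Hspb8 and Cryab, the inducible HSP70 genes Hspa1a and Hspa1b, Hsph1, Dnajb1, Hsp90aa1 and Hspe1. RNA came from sorted cells of tumours of 4T07, a mouse mammary carcinoma line, grown in the mammary fat pad of female C57BL/6J x Balb/cJ hybrids. The mixed tumours started from 250000 cells, GFP-transduced and mCherry-transduced at 1:1. Their hosts then received Jedi T cells, which recognise GFP and here lacked PD1 (PD1KO), by tail vein on day 7 or day 15 of growth, and the tumours were harvested 7 days after that. On each injection day 3 tumours gave a library of surviving GFP cells and 1 of untargeted mCherry cells. Another 4 libraries are of mCherry tumours with neither GFP cells nor Jedi T cells, called controls below. No library holds GFP cells from a tumour without T cells, so reporter and T cell attack cannot be told apart in any comparison of colours. The sources used here do not give the age of the mice or the growth time of the controls.

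Heat shock proteins are chaperones, which bind unfolded or misfolded proteins. The small ones (the Hspb genes and Cryab) hold such proteins in large oligomers without using ATP, and pass them on to HSP70. HSP70 is helped by J proteins such as Dnajb1, which deliver clients, and by HSP110 proteins such as Hsph1, which release nucleotide. Heat shock factor 1 (Hsf1) drives the inducible members after heat, proteotoxic stress or cell handling, while Hspb7, Cryab and Hspb8 are known best from muscle, lens and heart.

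Levels are counts per 1000000 (CPM), scaled by trimmed means of M values (TMM), and the log2 fold changes of edgeR's fits carry their standard error (SE). A gene is called where its adjusted p, over all genes tested, is under 0.05. Tumours carry their numbers in the count tables (day 7: 2 to 4, day 15: 1 to 3, controls: 1 to 4). The members were picked with their GFP against mCherry differences known, so their values are given as a description, with no p. Libraries held 9412040 to 19970822 counts on day 7 and 21183324 to 32808354 in the day 15 and control groups. Run 1 of sequencing held the day 7 libraries and run 2 the rest, and day cannot be told apart from run. The day 7 mCherry library of tumour 4 stood apart in Lars2, a mitochondrial leucyl-tRNA synthetase gene with 4.53% of its counts against 0.292% to 0.437% in the other 5 of that day. Markers chosen for mammary epithelium, most of all Krt8, were present in every library, at sums of 451 to 1441 CPM that were lower in GFP cells on both days. The basal keratin Krt14 was at 0 in all 6 day 7 libraries and Krt5 at 0 in the 3 day 7 GFP libraries.

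The members differ in the heat shock elements before their start sites, so 4 windows of 250 bases upstream of the RefSeq start (GRCm38.p6) are shown, with a short stretch for Hspe1. Hsf1 binds units of GAA in alternating orientation, and capitals mark 2 such units head to head (GAANNTTC) or tail to tail (TTCNNGAA). Hspb7 lies at chr4:141420529-141420778 (+), Hspb8 at chr5:116422865-116423114 (-), Hspb1 at chr5:135887669-135887918 (+) and Hspa1b at chr17:34959239-34959488 (-). For Hspe1, whose window lies inside the neighbouring Hspd1 gene, only 30 bases at chr1:55088053-55088082 (+) are shown.
Hspb7: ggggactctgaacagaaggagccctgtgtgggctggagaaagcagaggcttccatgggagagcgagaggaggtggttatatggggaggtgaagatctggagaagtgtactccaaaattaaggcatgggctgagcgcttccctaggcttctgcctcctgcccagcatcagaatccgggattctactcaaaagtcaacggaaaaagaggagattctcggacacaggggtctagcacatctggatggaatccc
Hspb8: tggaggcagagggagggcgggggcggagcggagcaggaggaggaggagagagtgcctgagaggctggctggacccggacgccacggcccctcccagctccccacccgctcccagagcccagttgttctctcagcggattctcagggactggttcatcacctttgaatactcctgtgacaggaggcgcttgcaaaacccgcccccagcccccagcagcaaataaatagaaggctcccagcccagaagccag
Hspb1: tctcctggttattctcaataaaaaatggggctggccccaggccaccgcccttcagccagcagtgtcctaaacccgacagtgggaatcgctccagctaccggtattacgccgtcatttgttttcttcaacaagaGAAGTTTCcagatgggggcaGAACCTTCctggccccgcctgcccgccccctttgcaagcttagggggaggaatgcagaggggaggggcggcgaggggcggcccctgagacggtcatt
Hspa1b: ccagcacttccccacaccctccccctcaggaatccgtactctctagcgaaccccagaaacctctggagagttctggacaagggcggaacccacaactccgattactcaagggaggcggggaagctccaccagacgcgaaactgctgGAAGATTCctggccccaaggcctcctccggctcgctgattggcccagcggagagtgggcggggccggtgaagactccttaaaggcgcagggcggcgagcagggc
Hspe1: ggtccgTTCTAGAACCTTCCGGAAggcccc
Both motifs read the same on either strand. Hspb1 held 2 matches, starting 117 and 97 bases before its start site, and Hspa1b 1 at 104 bases. In Hspe1, 3 overlapping matches formed 1 run of 18 bases, which also held the 3-unit GAANNTTCNNGAA. Of 32851 RefSeq promoter windows of this length, 6.69% held GAANNTTC, 7.17% TTCNNGAA, 12.8% either and 0.466% the 3-unit motif on either strand. Hsph1 had 1 match in each of its start sites' windows, and neither motif was found in the windows of Hspb7, Hspb8 or Dnajb1. These are letter matches and not measured binding. The window of Hspa1a was the same as that of Hspa1b at 247 of 250 positions, with T44C, C47T and G249T counted from the 5′ end and the base of Hspa1b first, and it held the match at the same place. Windows were found for 8 of the 10 genes, not for Cryab and Hsp90aa1.

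Hspb7, a small heat shock protein of heart and muscle that binds the actin crosslinker filamin, showed the widest gap between the colours of any member (GENCODE M21, GRCm38: chr4:141420779-141425311, + strand). On day 7 the GFP libraries held 8.32, 7.91 and 4.65 CPM in tumours 2, 3 and 4, and the mCherry libraries 0.442, 2.16 and 0.388. Every GFP library was above every mCherry library, but the mCherry values rest on only 9, 34 and 5 counts. The fitted log2 fold was 3.00 (SE 0.43, n = 3 tumours), a fold of 7.98, and it was 3.98 without tumour 3. On day 15 the GFP cells of tumours 1, 2 and 3 had 5.31, 7.18 and 8.50 CPM and their mCherry partners 0.714, 2.09 and 2.43. Again the groups did not overlap, and the log2 fold was 2.07 (SE 0.25, n = 3), a fold of 4.21. Controls 1 to 4 had 1.02, 0.596, 0.575 and 1.12 CPM, so 2 of the 3 day 15 mCherry libraries also lay above all controls. Per length Hspb7 had the lowest mean of the members over the 16 libraries, at 1.20 CPM per kilobase of exon, next to Hspa1a at 2.50 and Cryab at 31.8. In the 3 day 15 GFP libraries it stood above Hspa1a, at 1.92, 2.59 and 3.07 against 1.86, 1.39 and 1.03 CPM per kilobase. Fewer cells with the RNA and less RNA per cell cannot be told apart in these bulk libraries, here or below.

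Cryab, the alpha B crystallin of lens and muscle (chr9:50751325-50756636, + strand), had 104, 95.7 and 105 CPM in the day 7 GFP libraries of tumours 2 to 4. Their mCherry partners had 34.5, 40.8 and 48.0. The log2 fold of 1.33 (SE 0.12, n = 3) was close to 2.52 times, with 1.59, 1.23 and 1.13 in the single tumours. On day 15 both colours were lower, at 43.7, 49.9 and 45.2 CPM in GFP cells and 20.1, 26.6 and 22.8 in mCherry cells, yet their ratio was 2.01 (log2 fold 1.00, SE 0.09, n = 3). The 3 tumours of that day gave log2 differences of 1.12, 0.91 and 0.99, the closest set among the 4 members called that day. Controls held 29.3, 22.4, 27.2 and 37.2 CPM, within or above the day 15 mCherry range and below every GFP library. The lower level on day 15 in both colours falls between days and runs alike.

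Hspb8, which works with Bag3 in clearing misfolded proteins by autophagy (chr5:116408491-116422864, - strand), had a smaller and even difference. GFP cells held 156, 175 and 167 CPM on day 7 and 178, 185 and 169 on day 15. The mCherry cells held 118, 126 and 141 and then 128, 156 and 113. Groups did not overlap on either day, at log2 folds of 0.39 (SE 0.10) and 0.43 (SE 0.09), or 1.31 and 1.35 times (n = 3 each). Controls, at 139, 118, 124 and 137 CPM, lay within the range of the day 15 mCherry cells.

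Hspb1 (HSP27, chr5:135887919-135889563, + strand), the widely expressed and heat-inducible small heat shock protein, went the other way in most tumours. On day 7, GFP cells had 76.2, 96.5 and 113 CPM in tumours 2 to 4, and mCherry cells 87.5, 131 and 180.0. The groups overlapped, but within each tumour the GFP cells were lower, by log2 differences of -0.20, -0.44 and -0.67 (fitted -0.43, SE 0.12). Day 15 gave 70.7, 70.0 and 52.9 CPM in GFP cells and 63.7, 126 and 75.9 in mCherry cells. There tumour 1 differed by 0.15 and tumours 2 and 3 by -0.84 and -0.52 (fitted -0.41, SE 0.15). GFP cells were thus lower in 5 of 6 tumours, the reverse of the other small heat shock members. Of 100-base windows of the Hspb1 transcripts, 44.0% also match the pseudogene Hsp25-ps1, so its counts depend on how shared reads were assigned.

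**Figure D1:**
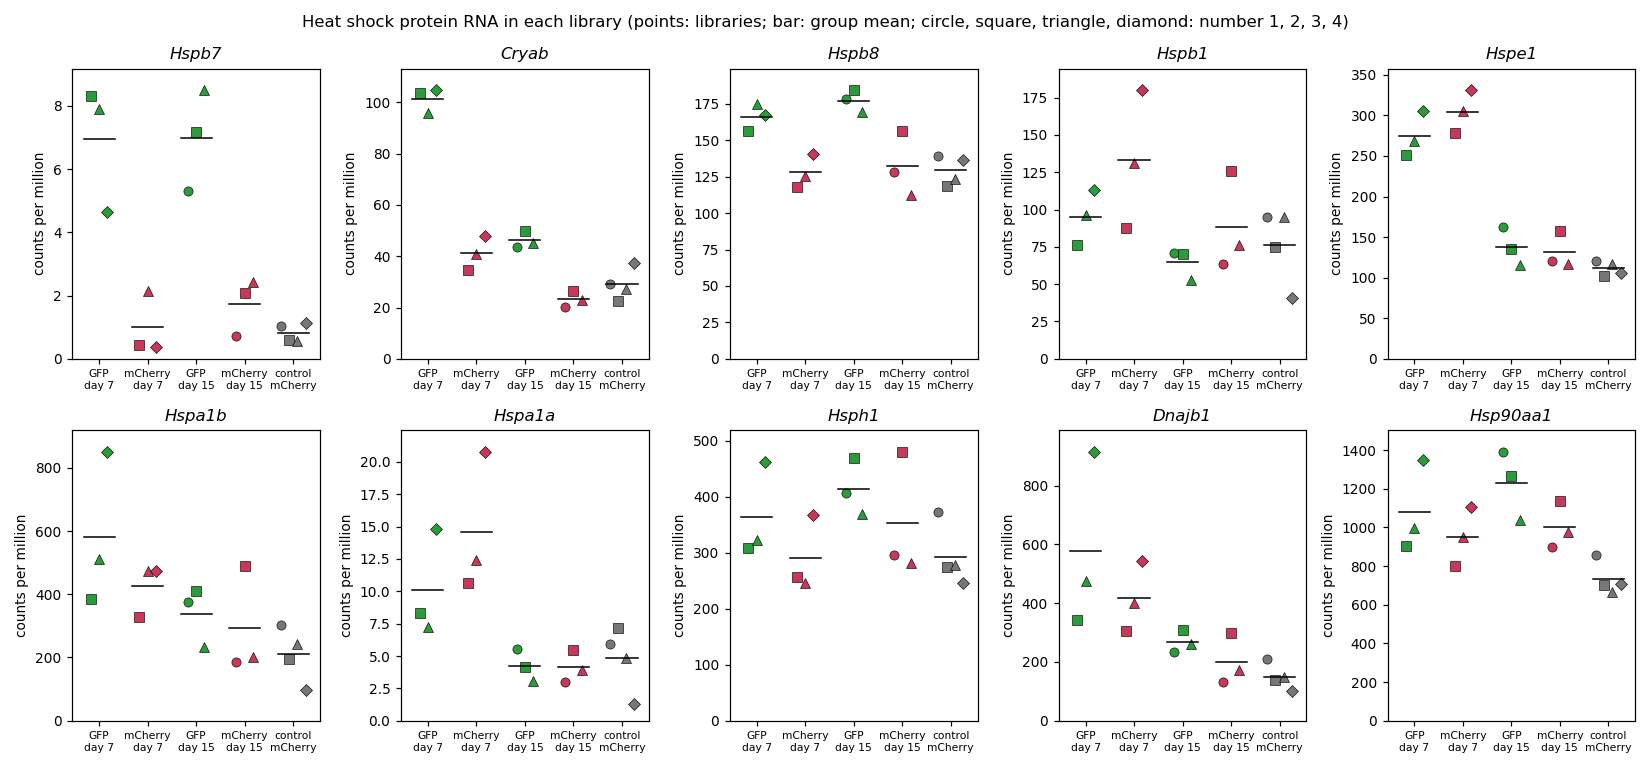
CPM (linear axis from 0) of each member in all 16 libraries, by colour and day, with the group mean as a bar and the tumour or control number as the symbol. Hspb7, Cryab and Hspb8 have every GFP point above every mCherry point on both days, while the other 7 members overlap.

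In the inducible HSP70 genes and their partners the colours overlapped on both days. Hspa1b, a stress-induced HSP70 gene (chr17:34956436-34959238, - strand), had 385, 511 and 850.2 CPM in the day 7 GFP cells of tumours 2, 3 and 4 and 328, 475 and 474 in their mCherry cells. On day 15 the values were 375, 409.7 and 233 in GFP cells of tumours 1 to 3 and 187, 488 and 201 in mCherry cells. Tumour 1 thus had 2.00 times as much in GFP cells and tumour 2 less, with log2 differences of 1.00, -0.25 and 0.21. The fitted log2 folds were 0.41 (SE 0.14) on day 7 and 0.32 (SE 0.18) on day 15, with overlapping groups.

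Hspa1a, which encodes nearly the same protein 12918 bases away on chromosome 17 (chr17:34969190-34972156, - strand), was counted at 0.994% to 4.19% of the summed CPM of the pair. Its levels ran from 7.24 to 14.8 CPM in day 7 GFP cells, 10.7 to 20.8 in day 7 mCherry cells, and 1.32 to 7.16 in the other 10 libraries. The log2 fold was -0.53 (SE 0.18) on day 7 and 0.03 (SE 0.27) on day 15. Much of both genes cannot be told apart by sequence. Of their 100-base windows, 56.5% of those of Hspa1a match Hspa1b, Hspa1l or Gm20481, and 49.9% of those of Hspa1b match Hspa1a. The sources used here do not give the counting rule for such reads, so neither gene's level nor the split between them is certain.

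Dnajb1 (HSP40, chr8:83608193-83612653, + strand) was, like Hspa1b, highest in day 7 GFP tumour 4 and, among day 15 mCherry libraries, in tumour 2. It had 342, 475 and 915 CPM in day 7 GFP cells and 306, 400.3 and 543 in mCherry cells, then 234, 308 and 262 against 130.5, 298 and 172 on day 15. All 6 tumours had more in GFP cells, from a log2 difference of 0.05 in day 15 tumour 2 to 0.84 in day 15 tumour 1. Fitted log2 folds were 0.40 (SE 0.12) and 0.50 (SE 0.13), while the day 15 mCherry libraries alone spanned 2.29 times.

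Hsph1 (HSP110, chr5:149614287-149636376, - strand) had 309, 323 and 462 CPM in day 7 GFP cells against 258, 246 and 368, and 407, 469 and 369 against 296, 480.1 and 282 on day 15. The difference was alike in the 3 day 7 tumours (0.26, 0.39 and 0.33), and was -0.03 in day 15 tumour 2. Fitted log2 folds were 0.34 (SE 0.10) and 0.27 (SE 0.10).

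Hsp90aa1, the stress-inducible HSP90 of the cytosol (chr12:110690605-110702728, - strand), was the most abundant member at a mean of 250.3 CPM per kilobase of exon. GFP cells held 903, 995 and 1347 CPM on day 7 and 1391, 1268 and 1037 on day 15, and mCherry cells 801, 952 and 1104 and then 899.8, 1135 and 977. GFP was higher in all 6 tumours, by log2 differences of 0.17, 0.06 and 0.29 on day 7 and 0.63, 0.16 and 0.09 on day 15. The day 15 value of tumour 1 thus stood apart from the other 2, and the fitted log2 folds were 0.19 (SE 0.10) and 0.29 (SE 0.11). Pseudogenes Gm12346 and Gm5844 share 38.0% of its windows.

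Hspe1, the mitochondrial HSP10 lid of the Hspd1 chaperonin (chr1:55088132-55091307, + strand), starts 111 bases from Hspd1, on the other strand. Its level split by day, and so by run, at 251 to 331 CPM in the 6 day 7 libraries and 102 to 162 in the other 10. The log2 folds between colours were -0.13 (SE 0.10) on day 7 and 0.07 (SE 0.11) on day 15.

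**Figure D2:**
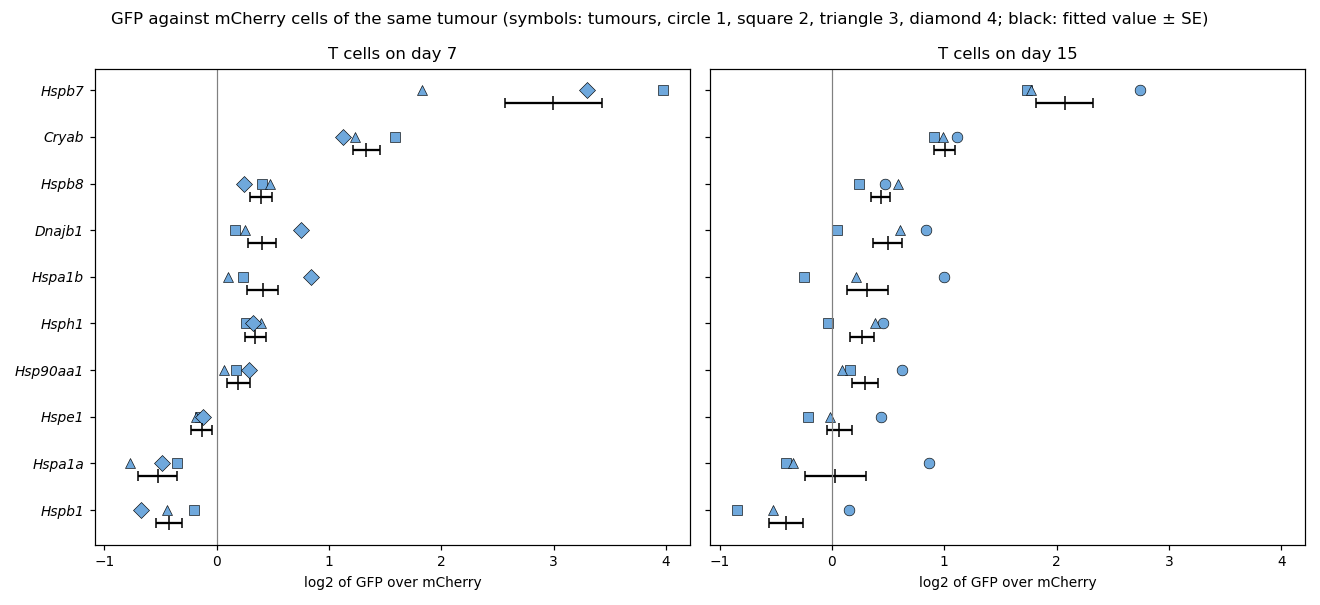
Log2 difference of GFP over mCherry cells in each tumour (symbols, TMM-scaled CPM with a prior count of 2) with the fitted log2 fold and its SE in black, for T cells given on day 7 and on day 15. Hspb7 and Cryab lie right of 0 in every tumour with no symbol near 0, whereas in day 15 tumour 1 (circles) all 10 members are right of 0 and in tumour 2 (squares) only 5 are.

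Counted over the members, 6 of 10 were called on day 7, with Cryab, Dnajb1, Hspb7, Hspb8 and Hsph1 higher and Hspb1 lower in GFP cells, beside 18.2% of the 14578 genes tested (8.89% higher and 9.33% lower). On day 15, 4 of 10 were called higher (Cryab, Dnajb1, Hspb7 and Hspb8), beside 19.5% of 14260 genes in either direction and 8.94% higher. All 10 members passed the filter on low counts in each comparison, and since they were picked from these contrasts nothing is read from their share. On day 7 Hspb7 passed it through its GFP libraries, at 71 to 106 counts against 5 to 34 in mCherry cells. The groups did not overlap for Hspb7, Cryab and Hspb8 on both days, where 15.9% of all genes on day 7 and 17.3% on day 15 had every GFP library above every mCherry library. The median log2 fold of the members was 0.37 on day 7 and 0.30 on day 15, against -0.00 and 0.01 over all genes tested.

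Calls of Cryab and Hspb7 stayed in all 8 alternative fits of each day. These fits reuse the libraries from which the members were picked, so a call that stays is no further support. The day 7 count was 3 without the tumour block (Cryab, Hspb7 and Hspb8), 3 without tumour 2 (Cryab, Hspb1 and Hspb7) and 2 without tumour 3 (Cryab and Hspb7). Without tumour 4, whose mCherry library had the high Lars2, the same 6 were called, and the log2 folds were 2.81 for Hspb7, 1.43 for Cryab, 0.46 for Hspb8 and 0.23 for Dnajb1. The day 15 count was 3 without the tumour block (Cryab, Hspb7 and Hspb8), 2 without tumour 3 (Cryab and Hspb7) and 8 without a filter on low counts.

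Some libraries stood high or low in several members at once. On day 7, tumour 4 had the highest Hspb1, Hspa1a, Hsph1, Dnajb1, Hsp90aa1, Hspe1 and Cryab of its colour in both colours. Among day 15 mCherry libraries, tumour 2 was the highest in all of these and in Hspa1b and Hspb8, but not in Hspb7. In day 15 GFP cells the highest library was split, with tumour 1 for Hspb1, Hspa1a, Hsp90aa1 and Hspe1 and tumour 2 for Hspa1b, Hsph1 and Dnajb1. Control 4 held the lowest level of all 16 libraries for Hspb1, Hspa1a, Hspa1b, Hsph1 and Dnajb1, at 40.6, 1.32, 98.5, 245 and 100.2 CPM, yet the highest control level of Cryab. The lowest Hsp90aa1 was in control 3 (667 CPM) and the lowest Hspe1 in control 2 (102 CPM). Over the 4 controls the highest was 5.44 times the lowest for Hspa1a, 3.08 for Hspa1b, 2.34 for Hspb1, 2.11 for Dnajb1 and 1.94 for Hspb7. The other 5 members varied less, at 1.66 for Cryab, 1.52 for Hsph1, 1.28 for Hsp90aa1, 1.18 for Hspe1 and 1.17 for Hspb8, so wide and narrow spreads were found in both kinds of heat shock gene.

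The 12 immediate early genes listed for handling, such as Fos and Dusp1, which dissociation of tissue is known to induce along with heat shock genes, were read in the same libraries. Their summed level in day 7 tumours 2, 3 and 4 was 4856, 6133 and 6618 CPM in GFP cells and 4973, 6027 and 6386 in mCherry cells, so tumour 4 was highest in both. On day 15 it was 14245, 15267 and 14444 CPM in GFP cells and 11613, 14544 and 11075 in mCherry cells, again with tumour 2 the highest of the mCherry group. Control 4 was the lowest of the controls, at 10529 against 12289 to 15971 CPM. Between colours, 0 of the 12 rose and 3 fell on day 7, beside 8.89% of all genes higher and 9.33% lower. On day 15, 5 rose and 2 fell, beside 8.94% of all genes higher and 10.6% lower. The 2 most abundant on day 15 were Fosb at a log2 fold of 0.36 (SE 0.11, adjusted p = 0.0426, edgeR) and Jun at 0.15 (SE 0.10, adjusted p = 0.309, edgeR). The call of Fosb did not hold without tumour 3, at 0.28, or without the block, at 0.34. On day 15 Fos, Jund and Dusp1 had every GFP library above every mCherry library, beside 17.3% of all genes. Ier3 had every one below, beside 19.0%, and the other genes of the list overlapped. Dusp1 held 1635 to 1851 against 1040 to 1413 CPM, and Ier3 179 to 201 against 214 to 348. Jund, Ier3 and the day 15 ranges of Fos and Dusp1 were named after their values were seen. On day 7 the 2 most abundant were Fos at 0.12 (SE 0.10, adjusted p = 0.478, edgeR) and Dusp1 at 0.24 (SE 0.10, adjusted p = 0.119, edgeR), and Dusp1 was called without tumour 4, at 0.23. The part of handling in the levels of the heat shock genes was not tested.

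Against the controls, 5 members were called higher in the GFP cells of day 15. The day 15 libraries of both colours also served in picking the members, so nothing is read from their share against the controls. The GFP and mCherry comparisons share the 4 controls, and the GFP one differs in reporter and in T cell attack at once. Every day 15 GFP library lay above every control for Hspb7 (log2 fold 3.08, SE 0.29), Dnajb1 (0.84, SE 0.21), Hsp90aa1 (0.75, SE 0.12), Cryab (0.67, SE 0.15) and Hspb8 (0.45, SE 0.08). These 5 were called, beside 13.1% of 14801 genes in either direction and 6.09% higher, and 14.7% of all genes had groups apart in this direction. Without the GFP library of tumour 1 only Hspb7 was called, and without that of tumour 2 only Hspb7 and Hsp90aa1.

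In mCherry cells of day 15 against the controls, Hsp90aa1 alone was apart, at 899.8 to 1135 against 667 to 857 CPM (log2 fold 0.45, SE 0.11), where 8.49% of all genes were apart in that direction. With edgeR 0 of 10 members and 0.0% of 14800 genes were called, while 2 of 10 members and 14.2% of genes had an unadjusted p under 0.05. DESeq2 called 224 genes, Hsp90aa1 among them. Of the 10 fitted log2 folds, 8 were above 0. The highest was that of Hspb7, at 1.07 (SE 0.44) and from 0.75 to 1.44 over 11 alternatives, followed by Hspa1b, Hsp90aa1 and Dnajb1, the last at 0.41 (SE 0.30). Hspb8 had 0.03 (SE 0.11), and below 0 were Cryab at -0.33 (SE 0.17) and Hspa1a at -0.24 (SE 0.47). For Hspa1b the log2 fold of 0.47 (SE 0.41) rested on tumour 2, and it was -0.11 without that library.

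**Figure D3:**
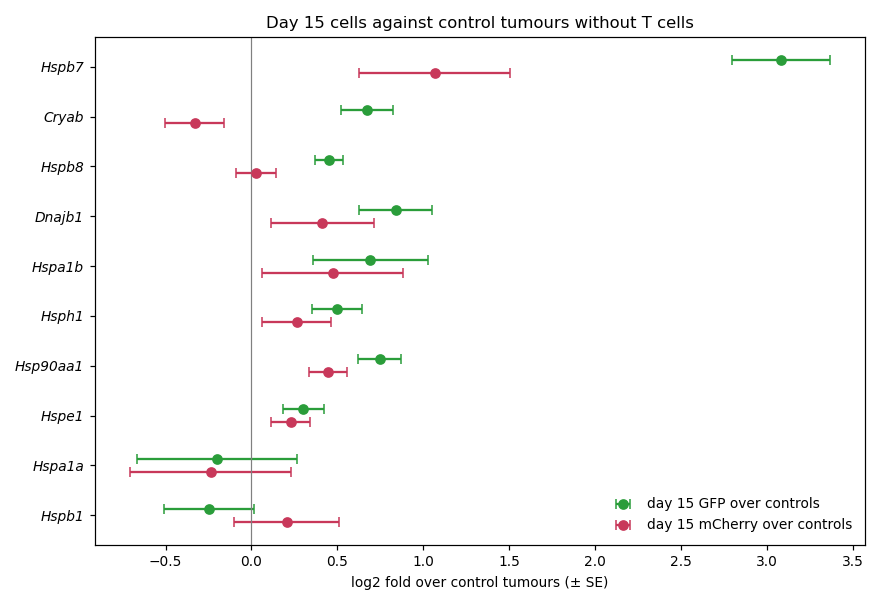
Log2 fold (± SE) of each member in day 15 GFP cells (green, n = 3) and day 15 mCherry cells (red, n = 3) over the 4 control tumours, which serve in both. Green and red intervals lie apart for Hspb7, Cryab, Hspb8 and Hsp90aa1 and overlap for the other 6 members.

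The colour difference itself was compared between days in 1 fit of the 12 mixed tumour libraries. The day 15 minus day 7 difference ran from -0.90 (SE 0.55) for Hspb7 to 0.56 (SE 0.34) for Hspa1a on the log2 scale. It was -0.33 (SE 0.16) for Cryab and 0.04 (SE 0.14) for Hspb8. With edgeR 0 of 10 members were called, beside 0.211% of 16626 genes. At an unadjusted p under 0.05 there were 0 of 10 members and 10.2% of genes, and DESeq2 called 0 members. The Hspb7 value was -1.91 without day 7 tumour 3, whose mCherry library held the 34 counts.

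Around these genes, 59 other chaperone genes in 9 roles were read from the same fits. On day 7, 53 were tested, and 4 rose and 3 fell in GFP cells, 7 genes beside 18.2% of all genes, with a median log2 fold of -0.00 like that of all genes. On day 15, 55 were tested, and 5 rose and 6 fell, 11 genes beside 19.5% of all genes, with a median of -0.06 against 0.01. Calls fell on both sides of 0 on each day. The list was chosen with earlier results of these data known, and genes other than Hsf1, Hspa8, Hspd1, Bag3 and Hspb2 are named for small p. Their adjusted p values are thus no independent support for the differences of the members.

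Of its small heat shock proteins, 2 of 3 tested rose on day 7 and 2 of 4 on day 15, Hspb2 and Hspb6 both times. Over all genes tested, 8.89% rose on day 7 and 8.94% on day 15. Hspb6 (HSP20), best known from smooth and heart muscle, had 121, 118 and 108 CPM in day 7 GFP cells and 71.5, 65.6 and 62.1 in mCherry cells. On day 15 it had 46.4, 44.2 and 47.8 against 26.3, 34.2 and 27.3. Its log2 folds were 0.82 (SE 0.09, adjusted p = 3.55e-04, edgeR) and 0.66 (SE 0.11, adjusted p = 0.00273, edgeR), and every GFP library was above every mCherry library. Like Cryab, it was lower on day 15 in both colours.

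Hspb2, another muscle small heat shock protein, starts 1029 bases from Cryab on the opposite strand. GFP cells held 58.0, 41.9 and 29.2 CPM of it on day 7 and mCherry cells 20.9, 18.3 and 16.4, a log2 fold of 1.19 (SE 0.15, adjusted p = 6.19e-04, edgeR). On day 15 the log2 fold was 0.59 (SE 0.15, adjusted p = 0.0204, edgeR), from 15.8, 17.7 and 13.4 against 8.30, 12.6 and 10.4 CPM. That call did not hold without tumour 1, at a log2 fold of 0.43, or without the block. Exons of the 2 genes share 252 bases, and the sources used here do not say whether counting used strand, so reads there cannot be told apart.

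Of the other HSP70 and HSP110 genes, Hspa4l, an HSP110 relative, rose on both days and Hspa14, a ribosome-bound HSP70, fell on both. Hspa4l had log2 folds of 0.65 (SE 0.10, adjusted p = 0.00164, edgeR) and 0.71 (SE 0.12, adjusted p = 0.00333, edgeR). For Hspa14 they were -0.67 (SE 0.13, adjusted p = 0.00641, edgeR) and -0.74 (SE 0.10, adjusted p = 7.88e-04, edgeR), and the day 7 call did not hold without tumour 3, at -0.59. Hspa8, the constitutive HSP70, had log2 folds of 0.30 (SE 0.10, adjusted p = 0.0697, edgeR) and 0.22 (SE 0.10, adjusted p = 0.149, edgeR).

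Hsf1 RNA had log2 folds of 0.04 (SE 0.11, adjusted p = 0.83, edgeR) and -0.13 (SE 0.09, adjusted p = 0.345, edgeR) on the same days. Bag3, the partner of Hspb8, had 0.29 (SE 0.10, adjusted p = 0.0648, edgeR) and 0.10 (SE 0.09, adjusted p = 0.487, edgeR). Hspd1, the partner of Hspe1, had -0.06 (SE 0.10, adjusted p = 0.718, edgeR) and -0.21 (SE 0.09, adjusted p = 0.118, edgeR).

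By edgeR 0 of the 8 genes of the chaperonin CCT and 0 of the 9 of HSP90 and its cochaperones were called on either day. At an unadjusted p under 0.05 there was 1 CCT gene on day 7 and no other gene of these roles, and DESeq2 called 0 of them. Hspa9 rose on day 7 (log2 fold 0.42, SE 0.10, adjusted p = 0.016, edgeR), a call lost without tumour 2 (0.41) or tumour 3 (0.47). The exchange factor Bag2 fell on day 15 (-0.65, SE 0.13, adjusted p = 0.00594, edgeR).

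**Figure D4:**
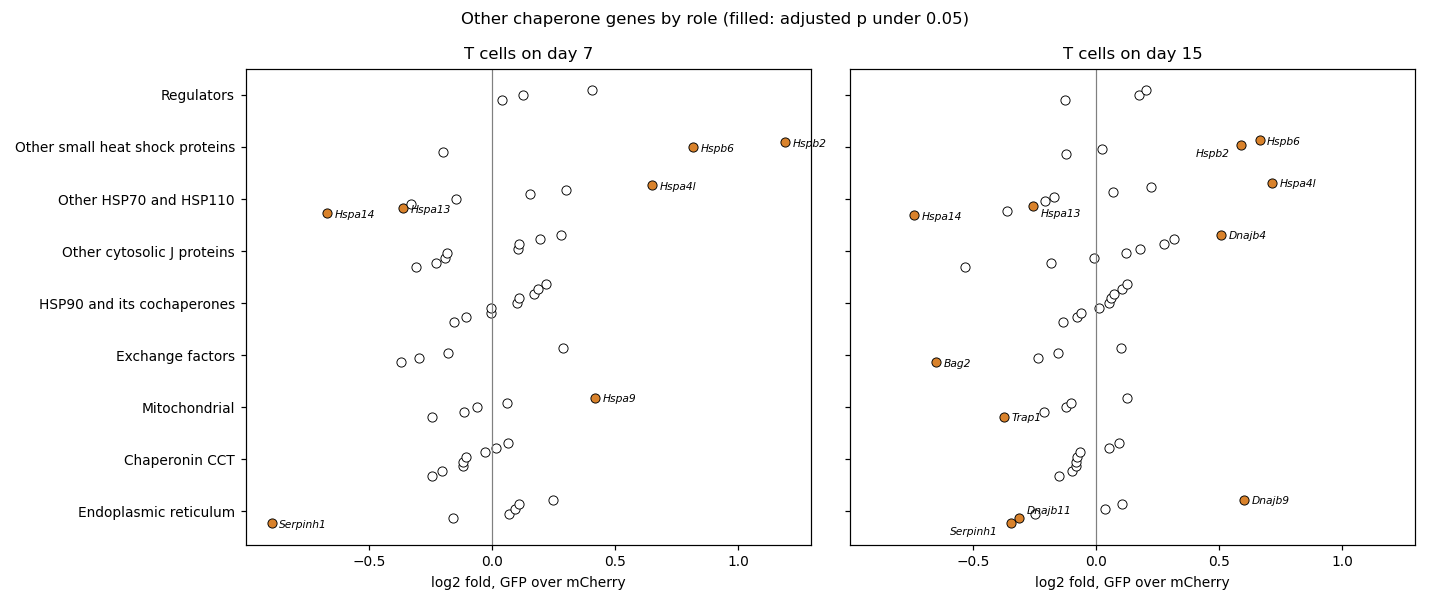
Log2 fold of GFP over mCherry cells for the other chaperone genes tested, by role, on day 7 and day 15, filled and named where the adjusted p is under 0.05. Hspb2, Hspb6 and Hspa4l are filled on the right on both days and Hspa14, Hspa13 and Serpinh1 on the left, while most genes of the other roles lie near 0. Serpinh1 spanned 135 to 433 CPM in day 7 mCherry cells against 111 to 124 in GFP cells. DESeq2 called 0 genes of its role, the endoplasmic reticulum, on day 7.

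Against the controls, 14 of 56 of these genes were called in day 15 GFP cells, 9 higher and 5 lower, beside 13.1% of all genes in either direction and 6.09% higher. Among them were Hspa4l (log2 fold 0.95, SE 0.15, adjusted p = 0.0112, edgeR) and Hspa8 (0.46, SE 0.09, adjusted p = 0.0193, edgeR). The count was 1 without the GFP library of tumour 1 and 3 without that of tumour 2. In day 15 mCherry cells 0 of 57 were called by edgeR, with 21 at an unadjusted p under 0.05, beside 14.2% of all genes, and 2 called by DESeq2. Their median log2 fold was 0.13, against -0.00 over all genes.

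Since Hspb7, Cryab, Hspb2 and Hspb6 are known from muscle, the markers of muscle cells were read in the same libraries. The 8 skeletal muscle markers summed to 2.36 to 3.47 CPM in day 7 GFP cells and 4.25 to 5.74 in day 7 mCherry cells, with every GFP library below every mCherry library. On day 15 the sums were 6.39 to 29.8 CPM in GFP cells, 4.64 to 21.2 in mCherry cells and 5.82 to 21.4 in the controls, which overlap. Their medians were 21.8, 8.77 and 12.7 CPM, and the median log2 fold of the skeletal markers in day 15 GFP cells was 0.67 against mCherry cells and 0.77 against controls. By gene the skeletal markers were mixed, and most were at a few CPM or less. On day 7, mean CPM was higher in GFP cells for Ckm, Acta1, Tnnc2 and Pvalb and lower for Myh4, Mylpf, Tnnt3 and Myh1. On day 15 it was lower in GFP than mCherry cells for Mylpf (0.914 against 1.38) and Myh1 (0.405 against 0.868) and higher for the rest. Against the controls, 0 skeletal markers were called higher and 1 lower in day 15 GFP cells, beside 6.09% and 6.97% of all genes. Smooth muscle and pericyte markers summed to 23.3 to 30.5 CPM in day 7 GFP cells against 24.3 to 38.1, and to 54.6 to 112 on day 15 against 82.3 to 109. Pdgfrb made up most of these sums, at means of 19.4 against 22.0 CPM on day 7. That day Acta2 (3.80 against 1.84) and Des (0.725 against 0.441) had higher means in GFP cells and the rest lower. On day 15 Des (1.11 against 0.713 CPM) and Cnn1 (0.286 against 0.106) had higher means in GFP cells. The rest had lower means, with Acta2 at 1.36 against 2.66 CPM. None of the 2 skeletal or 3 smooth muscle markers tested on day 7 was called by edgeR, with 1 and 2 at an unadjusted p under 0.05 and 0 called by DESeq2. On day 15, 0 of 8 skeletal markers were called by edgeR or DESeq2, with 1 at an unadjusted p under 0.05, and 1 of 6 smooth muscle markers fell.

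Markers of other cells moved with colour as well. Over all marker lists, 1 gene rose and 21 fell of 34 tested on day 7, beside 8.89% of all genes higher and 9.33% lower. On day 15, 2 rose and 17 fell of 47, beside 8.94% of all genes higher and 10.6% lower. In GFP cells 7 of 7 endothelial and 8 of 8 macrophage markers tested fell on day 7, and 3 of 8 and 5 of 7 on day 15. The endothelial sums were 10.4 to 11.5 CPM in GFP cells and 33.2 to 60.6 in mCherry cells on day 7, and 13.8 to 18.2 against 18.6 to 40.1 on day 15. The macrophage sums were 95.4 to 151 CPM in GFP cells and 545 to 737 in mCherry cells on day 7, and 52.3 to 71.1 against 84.9 to 106 on day 15. The mean of the macrophage marker Cd68 went the other way on day 15, at 9.81 against 6.09 CPM. Its ranges overlapped, at 5.89 to 13.2 against 4.24 to 8.30. CD45 (Ptprc), on which the cells were stained, was lower in every GFP library, at 0.746 to 1.83 against 4.82 to 10.3 CPM on day 7 (log2 fold -2.47, SE 0.27, adjusted p = 2.54e-04, edgeR) and 0.569 to 0.663 against 0.974 to 1.47 on day 15 (-0.95, SE 0.37, adjusted p = 0.105, edgeR). Neutrophil markers fell in 1 of 3 tested on day 7 and 2 of 3 on day 15, and adipocyte markers in 1 of 1 and 1 of 4. Markers of T and NK cells summed to at most 3.80 CPM in any library, and the 1 tested on day 7 was not called.

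The epithelial markers were also split by colour. Their sums were 533 to 847 CPM in GFP cells and 1028 to 1441 in mCherry cells on day 7, then 451 to 584 against 630 to 932 on day 15, and the colours did not overlap on either day. Controls had 626 to 1277 CPM. Of 4 tested, the keratin genes Krt8 and Krt18 fell on both days and the milk protein gene Csn3, named after its values were seen, rose on both. Krt8 had log2 folds of -0.96 (SE 0.14, adjusted p = 0.00142, edgeR) and -0.55 (SE 0.11, adjusted p = 0.00824, edgeR). Fibroblast marker sums overlapped on day 7, at 735 to 807 CPM in GFP cells and 683 to 827 in mCherry cells, but were higher in every GFP library on day 15, at 1336 to 1493 against 872 to 1045. That sum was mostly Dcn and Pdgfra, and Dcn, the gene of the matrix proteoglycan decorin, rose on day 15 (737 against 312 CPM, log2 fold 1.25, SE 0.09, adjusted p = 3.04e-05, edgeR). By gene the fibroblast list went the other way, with 1 of 6 tested higher, 3 lower and a median log2 fold of -1.12 on day 15, and 1 of 4 lower on day 7. The part of such cells in the differences of the heat shock genes was not tested.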

How the data were processed

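Sorted cells gave 16 libraries. Digestion took 20 minutes at 37 °C, with CD45 and DAPI stains, per the labels' protocols. The deposited values are raw counts per gene from a sequencing company, per the labels' protocols. Their build is mm10 in the submitters' processing notes. The sources used here do not give the sort gate, aligner, counter or annotation. Each table holds 49315 genes, of which 176 have no symbol, with at most 0.0110% of a library's counts.

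The filter was filterByExpr of edgeR (minimum count 10, minimum total 15) and the scaling TMM. Quasi-likelihood tests were run in edgeR 4.0.16 under R 4.3.3, with Benjamini-Hochberg adjustment over all genes tested. Tumour was a block within each day and between days, not against the controls. SE is the log2 fold divided by the root of its F statistic. The scripts were tested on simulated data. The members and all lists were chosen with earlier results of these data known. Named chaperones were Hsf1, Hspa8, Hspd1, Bag3, Hspb2 and up to 4 further called genes of smallest p. Of the handling list and of marker lists with calls, the 2 most abundant genes could be named, and Ptprc. The labels number day 7 tumours 1 to 3, so these columns were matched as groups. Same-numbered libraries of both colours had residual correlations of 0.110 to 0.162 on day 7 and 0.0896 to 0.232 on day 15, others at most 0.0186. On day 15 the labels tie both colours to 1 tumour, while day 7 pairing rests on column numbers. Alternatives were DESeq2 1.42.0, its size factors, other filters, no block, leave-one-out fits, a joint fit of run 2, and raw totals. Gene counts within a group varied beyond counting error (chi-square over its degrees of freedom 5.34 to 92.1). Coordinates are from GENCODE M21 (GRCm38) and promoters from RefSeq (GRCm38.p6).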

Additional observations from a re-analysis of the deposited data

How the results depend on the processing

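The fitted log2 folds kept their sign in every alternative for 10 of 10 members on day 7, 7 of 10 on day 15 (not Hspa1a, Hspa1b and Hspe1), 9 of 10 in GFP cells and 5 of 10 in mCherry cells against controls, and 4 of 10 for the difference between days. Counts of calls moved as follows. Without the replicate block that pairs the colours of a tumour, day 7 gave 3 members and 1 handling gene, day 15 gave 7 other chaperones and 3 handling genes, and the difference between days gave 2 genes. Without a filter on low counts, 8 members were called on day 15, 1 handling gene in GFP cells against controls, and 354 genes, 1 chaperone and 1 handling gene between days. A minimum count of 50 gave 14 genes between days. DESeq2 called 224 genes, 1 member and 2 chaperones in mCherry cells against controls, 1 handling gene in GFP cells against controls, and 136 genes between days. Leaving out 1 tumour or library gave 1156 to 4558 genes, 2 to 6 members, 3 to 19 chaperones and 1 to 6 handling genes on day 7. On day 15 it gave 1736 to 2546 genes, 2 to 6 members, 8 to 10 chaperones and 2 to 7 handling genes. Against controls it gave 287 to 2093 genes, 1 to 6 members, 1 to 15 chaperones and 0 to 1 handling genes in GFP cells, and 0 to 7 genes in mCherry cells. Between days it gave 3 to 126 genes. A fit left with 2 tumours has 1 residual degree of freedom, and the cause of these shifts was not tested.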
